A study of Mus musculus with 12 samples.

Results

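A set of 36 genes that mark blood cells other than B cells was followed through RNA sequencing of sorted mouse B cells, to describe how much RNA of other lineages the sorted fractions held. The set made up 36 of the 46078 genes of the count file. Its members were matched by gene symbol and arranged as 6 lists of lineage markers. The rule that named them uses no measured value, but earlier results of these data were known when it was written. The lists held 12 T cell genes, 6 natural killer (NK) and cytotoxic genes, 7 macrophage and monocyte genes, 5 dendritic cell genes, 3 erythroid genes and 3 platelet genes. Granule genes of neutrophils were left out of the set. All 36 genes had counts, and 35 passed the filter on low counts. The exception was Pf4, with 2 to 13 counts per library.

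The libraries came from the spleens of C57BL/6 mice aged 8 to 12 weeks. B cells of the follicles (FO) and of the marginal zone (MZ) were separated with a magnetic bead kit. Each subset had 3 libraries from control and 3 from CKO mice, which makes 4 groups. Control mice are given as VAVcre, with WT as the genotype, and CKO mice as VAVcre-Zbtb24, lacking Zbtb24 (Zbtb24-/-). Both genotypes therefore carried the VAVcre transgene. Vav regulatory sequences drive Cre in blood-forming cells and their descendants, so the T, NK, myeloid and erythroid cells of a CKO mouse carry the deletion as well as its B cells. The labels give animal numbers 1505, 1507 and 2003 for control replicates 1 to 3, and 1512, 1514 and 2002 for CKO replicates 1 to 3. Each number stands on 1 FO and 1 MZ library, and that both come from 1 mouse is read from these numbers.

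Magnetic enrichment of untouched B cells works by labelling other leukocytes with antibodies and holding them back in a column, so cells that escape labelling stay in the B cell fraction. T cells are the most abundant other lymphocytes of the spleen, red pulp macrophages clear aged erythrocytes there, and the mouse spleen also makes erythroid cells. Lineage markers are read as a trace of such cells, with the limit that some of these genes are also transcribed at a low level in B cells. In bulk RNA, fewer cells of a type and less RNA per cell cannot be told apart.

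Levels are given as CPM, the counts relative to library size, scaled between libraries by the TMM method of edgeR, and levels of different genes are compared only as RPKM, the CPM per kilobase of exons. Gene counts summed to 36340116 to 44629250 per library. B cell identity was plain in every library. Ms4a1, which encodes the B cell surface protein CD20, was at 974 to 1197 CPM in FO and 1378 to 1960 CPM in MZ libraries. Fcer2a, the FO marker CD23, was at 513 to 592 CPM in FO and 65.8 to 94.1 CPM in MZ libraries, and S1pr3, a sphingosine phosphate receptor of MZ cells, at 9.004 to 16.4 and 224 to 293 CPM, so the subsets did not overlap. Zbtb24 itself was at 60.8 to 62.5 CPM in control and 46.9 to 50.04 CPM in CKO libraries of FO cells, and at 49.1 to 54.4 against 41.8 to 46.4 CPM in those of MZ cells. The ranges did not overlap, and reads outside a deleted part of the gene are still counted, so these levels do not measure the loss of the protein.

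The 36 genes together held 0.0550 to 0.136% of the gene counts of a library. The T cell list took the largest part in each library, 0.0344 to 0.0584% of gene counts in FO and 0.0228 to 0.0411% in MZ libraries, and the macrophage and monocyte list the next largest, 0.0207 to 0.0495% and 0.0163 to 0.0303%. Per length, the median RPKM of the T cell list was 4.63 to 8.33% of the median RPKM of 10 B cell genes in FO libraries and 1.498 to 3.295% in MZ libraries. The macrophage and monocyte list reached 2.30 to 8.13% in FO and 1.56 to 4.88% in MZ libraries on the same scale, the NK and cytotoxic list 1.603 to 4.87% over all 12, and the dendritic cell and platelet lists at most 0.821 and 0.215%. The erythroid list had by far the widest range per length, from 0.243% in the MZ control library of animal 2003 to 41.7% in the FO CKO library of animal 1514, and at 20.6, 28.5, 12.3 and 25.9% it was also above all T cell values in the FO control libraries of animals 1505 and 1507, the MZ control library of animal 1507 and the MZ CKO library of animal 1514. These percentages compare RNA levels and are not shares of cells. Of the 10 B cell genes, Ms4a1, Blk and Cr2 were higher in MZ cells of both genotypes by edgeR's quasi-likelihood test, which moves the reference as well as the markers.

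**Figure D1:**
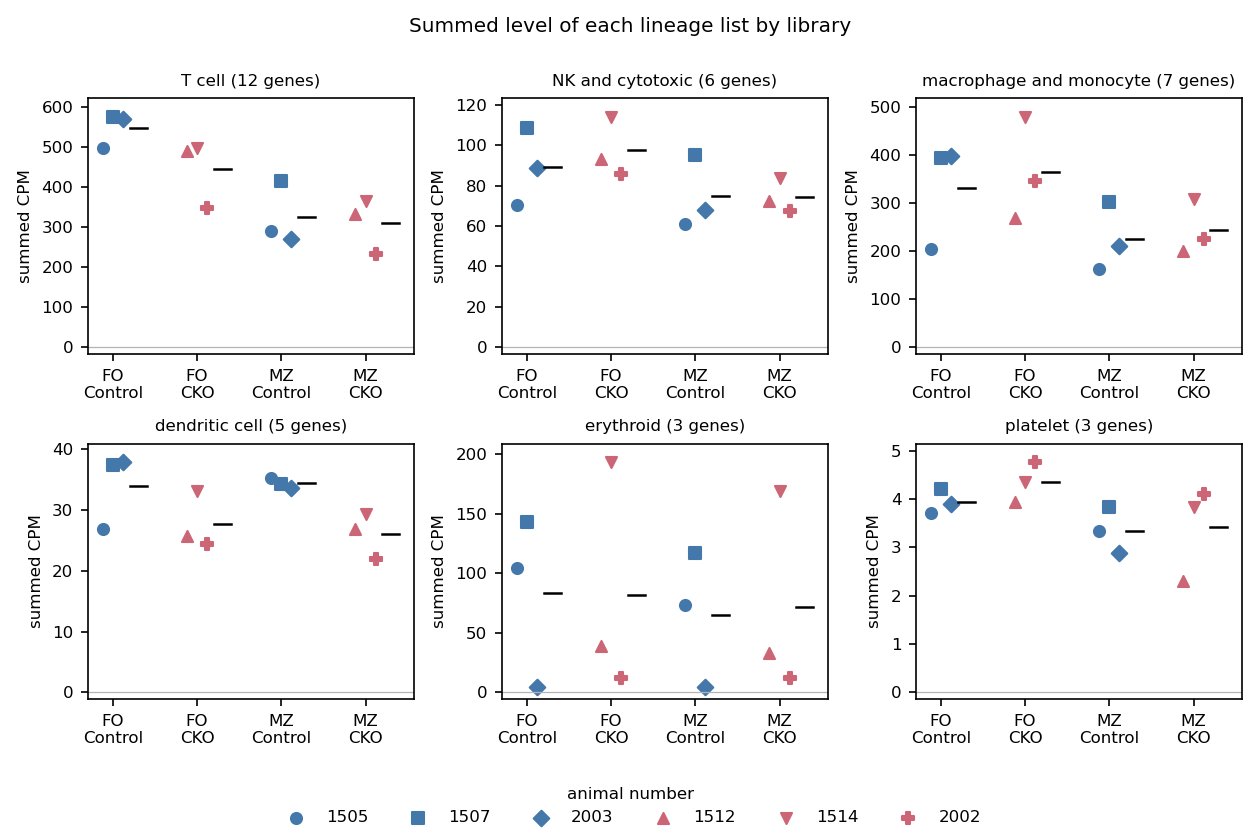
Summed CPM (y axis, linear) of the 6 marker lists in the 12 libraries, by group (x axis), with a symbol for each animal number, blue for control and red for CKO, and a short line at the mean of 3 libraries. T cell sums of the MZ control libraries lie below all FO control libraries, and erythroid sums range from 3.95 to 194 CPM and keep the order of the animals in FO and MZ.

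Erythroid genes showed the widest range of the set, and it followed the animal. Hbb-bs, the adult beta globin chain of haemoglobin, was at 65.7, 88.7 and 2.05 CPM in the FO control libraries of animals 1505, 1507 and 2003, and at 25.3, 117 and 7.73 CPM in the FO CKO libraries of animals 1512, 1514 and 2002. In the MZ libraries of the same animals Hbb-bs was at 49.5, 73.2 and 2.34 CPM in control and 22.0, 95.7 and 6.35 CPM in CKO. The animals thus stood in the same order in both subsets, from 2003 at the bottom through 2002, 1512, 1505 and 1507 to 1514 at the top. Hba-a1, the adult alpha globin chain, was at 30.6, 43.1 and 0.732 CPM in FO control, 9.67, 61.7 and 2.86 in FO CKO, 18.3, 33.3 and 0.677 in MZ control and 8.54, 58.8 and 3.12 in MZ CKO. Alas2, the erythroid form of the first enzyme of haem synthesis, was at 7.76, 11.4 and 1.17 CPM in FO control, 3.51, 15.2 and 1.73 in FO CKO, 5.33, 10.4 and 1.16 in MZ control and 2.81, 14.4 and 2.07 in MZ CKO. The highest library exceeded the lowest 91.1-fold for Hba-a1, 57.0-fold for Hbb-bs and 13.1-fold for Alas2. Of Alas2's exon bases 15.5% overlap genes on the other strand, Apex2 and Mir3620, so its level is uncertain to that extent. Even the lowest globin counts were well above counting noise: Hba-a1 had 24 reads in the MZ control library of animal 2003, with an exact 95% Poisson interval of 15.4 to 35.7 that covers counting error only, against 2449 reads in the FO CKO library of animal 1514.

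The proximal promoters of these 3 genes are shown because the genes moved together over the 12 libraries. Each run is the 120 bases before the RefSeq start on GRCm38.p6, written along the gene's strand. Capitals mark, on either strand, the CACCC box (CACCC or GGGTG), the TATA motif (TATAA or TTATA) and the GATA motif (AGATAA or TTATCT). No match of 1 motif overlapped a match of another in these 3 sequences.
Hbb-bs, chr7:103827929-103828048, minus strand: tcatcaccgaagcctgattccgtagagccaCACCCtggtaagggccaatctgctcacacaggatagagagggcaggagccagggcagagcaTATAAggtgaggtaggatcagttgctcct
Hba-a1, chr11:32283552-32283671, plus strand: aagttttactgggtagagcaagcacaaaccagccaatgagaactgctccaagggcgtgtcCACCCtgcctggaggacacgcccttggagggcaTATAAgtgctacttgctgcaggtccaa
Alas2, chrX:150547297-150547416, plus strand: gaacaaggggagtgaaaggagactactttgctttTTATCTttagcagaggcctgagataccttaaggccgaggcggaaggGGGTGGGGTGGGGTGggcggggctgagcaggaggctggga
The Gencode gene models on the same build start further upstream, so these windows lie wholly or in part inside the annotated genes. A CACCC box was present in all 3 windows, a TATA motif in both globin windows and a GATA motif in that of Alas2. Among 32851 mouse promoter windows of this length, 31.7% held a CACCC box, 11.8% a TATA motif and 4.36% a GATA motif. RefSeq promoters were matched for 24 of the 36 genes, and of these 14 held a CACCC box, 5 a TATA motif and 2 a GATA motif. A match describes letters and is not a binding site.

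Over the 12 libraries, the sum of squares of log2(CPM + 0.1) was divided between subset, genotype, animal within genotype and a remainder. Animal within genotype took 99.1% for Hbb-bs, 98.8% for Alas2 and 98.4% for Hba-a1. Over 18546 genes the median of this share was 31.3% and its 99th percentile 92.5%, and animals held 36.4% of the degrees of freedom. Subset took at most 0.280% and genotype at most 0.901% for these 3 genes. Both animals of the other number series, 2002 and 2003, were low. What the number series stands for is not given in the labels, so it cannot be told apart from the animals themselves.

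Further erythroid genes varied with the animals in a like way, though single genes left the order: Hbb-bt was higher in the FO library of animal 1507 than in that of 1514, and higher in that of 2002 than in that of 1512. The mean log2 level of 9 other erythroid genes correlated with that of the 3 listed ones at a Pearson r of 0.986, a description over 12 libraries that share 6 animals. Slc4a1, the band 3 anion exchanger of erythrocytes, was at 34.4, 45.2 and 0.634 CPM in the FO control libraries and 14.2, 85.9 and 3.01 CPM in the FO CKO libraries. Among the genes most like the erythroid list, by Pearson r of log2 CPM over the 12 libraries, were Hba-a2 (r = 0.995), Slc4a1 (0.994) and Kel (0.991), which encodes the Kell blood group antigen. Hba-a1 shares 72.3% of its 50-base transcript words with Hba-a2, and Hbb-bs shares 53.2%, mostly with Hbb-bt, so reads of these copies may have been split or dropped by the authors' counting, and single-gene globin levels are uncertain.

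**Figure D2:**
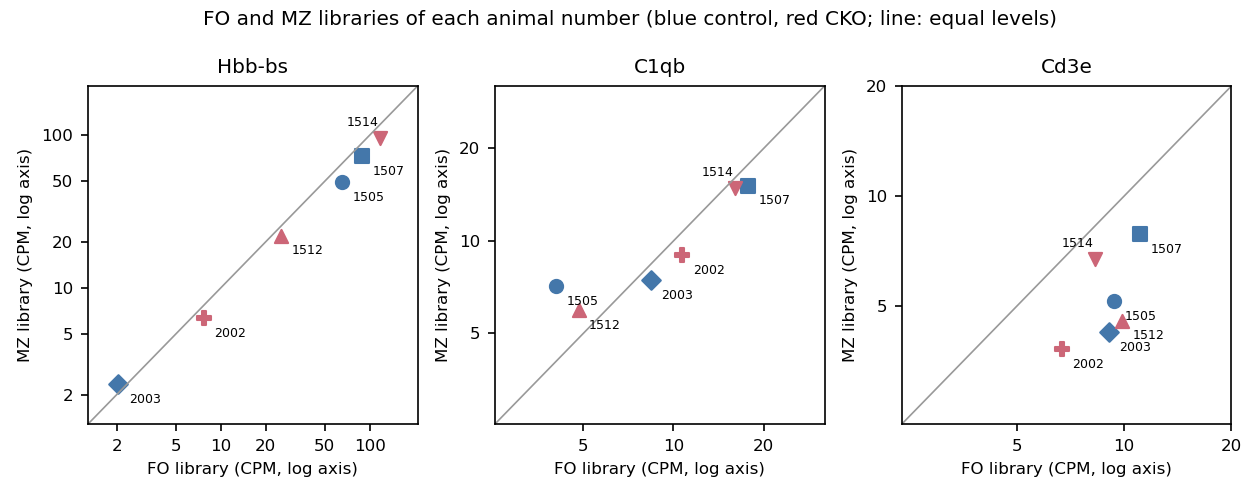
CPM in the FO library (x axis, log scale) against CPM in the MZ library (y axis, log scale) of each animal number for Hbb-bs, C1qb and Cd3e, with control in blue, CKO in red and a line at equal levels. Hbb-bs lies near the line over its whole range and below it in 5 of the 6 animals. C1qb spreads along the line with animals 1505 and 1512 above it, and Cd3e lies below it in all 6 animals.

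No erythroid gene passed the test between subsets or genotypes without a block. The log2 fold change of Hbb-bs was -0.05 ± 1.6 (SE) between FO CKO and FO control and -0.02 ± 1.53 between MZ CKO and MZ control, with n = 3 libraries per group. Those of Hba-a1 were 0.00 ± 1.71 and 0.42 ± 1.67, and those of Alas2 were 0.01 ± 1.22 and 0.18 ± 1.17. Such errors leave room for several-fold changes in either direction. With the animal as a block, MZ control was below FO control by edgeR's quasi-likelihood test with Benjamini-Hochberg adjustment for Hba-a1 (log2 fold change -0.52 ± 0.09, adjusted p = 9.112e-07) and Hbb-bs (-0.29 ± 0.07, adjusted p = 0.0005135). In the CKO libraries this held for Hbb-bs (-0.25 ± 0.08, adjusted p = 0.01114) and was not reached by Hba-a1 (-0.06 ± 0.09, adjusted p = 0.6489). The drop of Hbb-bs was not shared by all control animals. Its ratio of MZ to FO was 0.754 in animal 1505, 0.825 in 1507 and 1.14 in 2003. Of 9 further erythroid genes 0 passed between MZ and FO without the block. With it 7 passed as lower in MZ control (21.3% of all genes) and 6 in MZ CKO (16.6% of all genes). The summed level of these 9 was lower in the MZ library of each of the 6 animals, with ratios of 0.356 to 0.786. Each of these blocked fits leaves 2 residual degrees of freedom per gene.

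T cell genes were lower in MZ than in FO libraries. Between MZ control and FO control 11 of the 35 tested genes passed the test, 10 lower and 1 higher, where 27.9% of all genes passed (14.9% higher, 13.0% lower). Of the 10 lower genes 8 were T cell genes, and the median log2 fold change of the 12 T cell genes was -0.83, against 0.01 over all genes tested. In all 12 the 3 MZ control libraries lay below the 3 FO control libraries, where groups did not overlap for 42.3% of all genes. With the animal as a block, 21 of the 35 genes passed, 20 lower and 1 higher, against 43.8% of all genes (21.3% lower, 22.4% higher).

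Lck, the Src-family kinase that starts T cell receptor signalling, was at 111, 127 and 133 CPM in FO control, 106, 126 and 80.5 in FO CKO, 86.3, 101 and 85.4 in MZ control and 90.8, 111 and 71.1 in MZ CKO. Trbc2, a constant segment of the T cell receptor beta chain, was at 63.1, 71.0 and 70.5 CPM in FO control, 61.8, 59.5 and 44.5 in FO CKO, 33.5, 49.6 and 29.2 in MZ control and 42.7, 40.6 and 28.7 in MZ CKO. Cd4, the co-receptor of helper T cells, was at 38.3, 39.6 and 45.2 CPM in FO control, 42.5, 39.4 and 31.8 in FO CKO, 21.5, 29.9 and 21.8 in MZ control and 25.2, 29.0 and 20.7 in MZ CKO. For each of these genes the control groups did not overlap, and the FO CKO library of animal 2002 was the lowest of the 6 FO libraries. Cd8b1, a chain of the co-receptor of cytotoxic T cells, was at 45.9, 57.9 and 53.0 CPM in FO control, 39.5, 43.9 and 24.7 in FO CKO, 21.2, 38.3 and 19.6 in MZ control and 26.1, 28.6 and 13.8 in MZ CKO. Cd3e, a signalling chain of the T cell receptor complex, was at 9.38, 11.1 and 9.07 CPM in FO control, 9.90, 8.29 and 6.68 in FO CKO, 5.17, 7.87 and 4.26 in MZ control and 4.57, 6.72 and 3.81 in MZ CKO. Markers of both helper and cytotoxic T cells were thus present in all 12 libraries, and the MZ CKO library of animal 2002 was the lowest for both Cd8b1 and Cd3e. Trac, the constant segment of the alpha chain, was at 42.7, 39.9 and 49.5 CPM in FO control, 40.9, 39.2 and 30.5 in FO CKO, 23.5, 29.1 and 18.4 in MZ control and 26.5, 28.7 and 18.5 in MZ CKO. Trbc1, the other constant segment of the beta chain, was at 30.3, 37.0 and 30.9 CPM in FO control, 34.1, 28.8 and 25.6 in FO CKO, 17.4, 22.9 and 15.1 in MZ control and 19.7, 19.2 and 15.2 in MZ CKO. Cd3d, another chain of the receptor complex, was at 22.9, 26.8 and 22.2 CPM in FO control, 25.7, 24.0 and 17.8 in FO CKO, 14.02, 19.9 and 11.7 in MZ control and 16.9, 16.3 and 10.5 in MZ CKO. For these 3 genes the FO and MZ libraries did not overlap in either genotype. Thy1, a glycoprotein of T cells, was at 18.9, 30.2 and 18.3 CPM in MZ control and 23.6, 25.7 and 14.6 in MZ CKO, and its FO levels are given with the comparison of genotypes.

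By edgeR's quasi-likelihood test with Benjamini-Hochberg adjustment, MZ control against FO control gave log2 fold changes of -0.44 ± 0.09 (SE) for Lck (adjusted p = 0.002761), -0.75 ± 0.13 for Cd4 (0.002764), -0.82 ± 0.15 for Trbc1 (0.00449) and -0.89 ± 0.17 for Trac (0.008096). These 4 genes and Bst1 also passed in each of the 6 fits that left out 1 library. Thy1 fell by 0.99 on the log2 scale (SE 0.21, adjusted p = 0.01731), Cd3e by 0.77 (SE 0.21, 0.02172), Trbc2 by 0.86 (SE 0.21, 0.03262) and Cd3d by 0.65 (SE 0.19, 0.03814), but these passed in 1 or 2 of the 6 fits. Cd3g, Cd8a, Cd8b1 and the co-stimulatory receptor Cd28 had log2 fold changes of -0.87, -0.84, -0.98 and -0.75 with adjusted p of 0.05861, 0.1292, 0.08198 and 0.09694. With the animal as a block, Cd3g (adjusted p = 0.04409) and Cd28 (0.03912) passed, and Trac (0.1327) and Trbc2 (0.06211) did not. Trbc1 and Trbc2 share 40.5 and 44.0% of their 50-base words with each other, so their separate levels are uncertain.

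The count of 11 leaned on single libraries. It was 5 without the MZ control library of animal 1505, 6 without the FO control library of animal 1507, 6 without that of animal 2003, 7 without the MZ control library of animal 2003 and 17 without the MZ control library of animal 1507, whose T cell sum of 414 CPM was the highest of the MZ libraries. With the 15xx animals alone it was 4.

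Among the CKO mice 9 of 35 genes passed between MZ and FO, 7 lower and 2 higher, where 18.3% of all genes passed (10.5% higher, 7.78% lower). Of the 7 lower genes 3 were T cell genes: Trbc1 (log2 fold change -0.70 ± 0.14, adjusted p = 0.006982), Cd4 (-0.59 ± 0.15, 0.02635) and Cd28 (-0.71 ± 0.21, 0.04626), by the same edgeR test. Cd28 was at 15.3, 20.04 and 19.1 CPM in FO control, 17.5, 15.8 and 10.4 in FO CKO, 9.74, 15.1 and 7.36 in MZ control and 9.61, 9.70 and 7.18 in MZ CKO. The median log2 fold change of the 12 T cell genes was -0.63, all 12 were negative, and Lck stood nearest to 0 (-0.19 ± 0.23, adjusted p = 0.6491). The MZ and FO libraries of CKO mice did not overlap for 7 of the 12 T cell genes and for 16 of the 36 genes, where 36.4% of all genes did not. With the animal as a block 26 of the 35 genes passed, 24 lower and 2 higher, against 35.8% of all genes (16.6% lower, 19.2% higher), and these included all 12 T cell genes (adjusted p of Lck 0.02031). The unblocked count fell to 3 without the MZ CKO library of animal 1512, 4 without that of animal 2002, 4 without the FO CKO library of animal 1512 and 5 without that of animal 1514.

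Within each of the 6 animal numbers, all 12 T cell genes were lower in the MZ than in the FO library. The share of all genes lower in each of the 6 was not computed. The ratio of MZ to FO CPM for the T cell sum was 0.583, 0.720 and 0.473 in control animals 1505, 1507 and 2003 and 0.678, 0.733 and 0.672 in CKO animals 1512, 1514 and 2002. Lck had the ratio nearest to 1 of the 12 genes in each of the 6 animals, 0.643 to 0.884. Lck also varied least over the 12 libraries, 1.87-fold from lowest to highest against 2.19-fold for Cd4 and 4.19-fold for Cd8b1, the ends of the range of the other T cell genes. Each T cell gene except Lck correlated with the mean of the other 11 at a Pearson r of 0.951 to 0.990 over 12 libraries, and Lck at 0.886. These libraries share animals, preparation and depth, and the r is a description. Lck is also transcribed in some B cell subsets, and it made up 9.50 to 14.5% of the counts of the 36 genes.

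**Figure D3:**
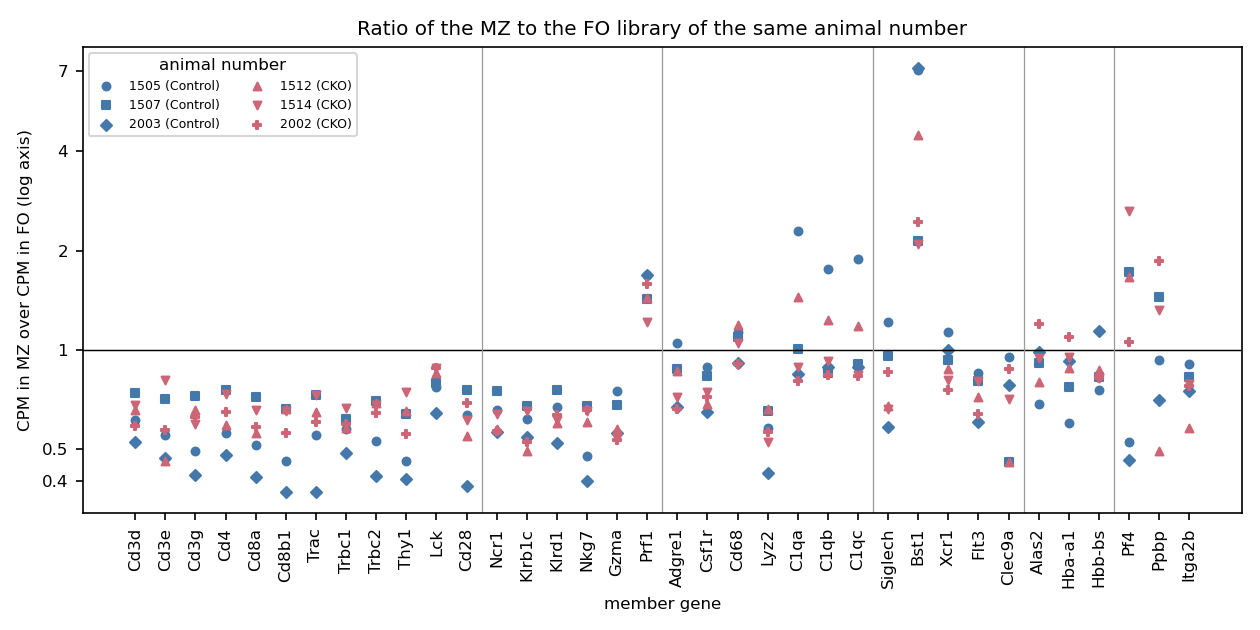
Ratio of the CPM in the MZ library to the CPM in the FO library of the same animal number (y axis, log scale) for the 36 genes (x axis, in list order, vertical lines between lists), blue symbols for control and red for CKO animals, horizontal line at 1. The T cell genes lie between 0.371 and 0.884, Bst1 between 2.09 and 7.15, Prf1 between 1.21 and 1.69, and the erythroid genes around 1.

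A further 16 T cell genes moved like the listed ones. Between MZ control and FO control 11 of 16 fell and none rose, with a median log2 fold change of -0.78, where 13.0% of all genes fell. The log2 fold change was -0.89 for Cd6, a surface receptor (adjusted p = 0.0001253), -0.57 for Cd5, an inhibitory receptor also found on B-1 cells (0.002098), -0.84 for Lat, the adaptor of T cell receptor signalling (0.003472), and -0.95 for Icos, a co-stimulatory receptor (0.004246). In CKO mice 4 of 16 fell, namely Lat (-0.53, adjusted p = 0.005798), Cd2 (-0.36, 0.01769), Ctla4 (-0.85, 0.02864) and Icos (-0.65, 0.03958), where 7.78% of all genes fell. Cd2 stood at 70.6 to 125 RPKM over the 12 libraries, against 5.77 to 14.8 RPKM for Cd3d. Whether its level came from T cells was not tested.

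The 6 NK and cytotoxic genes did not all share 1 pattern. Gzma, a granzyme of killer cells, was at 14.6, 29.3 and 21.9 CPM in FO control, 32.1, 33.3 and 31.1 in FO CKO, 10.9, 19.96 and 12.2 in MZ control and 18.5, 18.0 and 16.6 in MZ CKO. Prf1, the pore-forming protein perforin, was at 16.7, 27.3 and 19.2 CPM in FO control, 21.6, 24.1 and 18.5 in FO CKO, 28.2, 38.9 and 32.3 in MZ control and 31.0, 29.2 and 29.4 in MZ CKO. Gzma was thus lower and Prf1 higher in the MZ library of each animal, with MZ to FO ratios of 0.532 to 0.749 and of 1.21 to 1.69. Nkg7, a granule membrane protein shared by NK and cytotoxic T cells, was at 19.2, 23.5 and 19.6 CPM in FO control, 17.0, 20.05 and 11.6 in FO CKO, 9.19, 15.9 and 7.87 in MZ control and 10.3, 13.1 and 7.65 in MZ CKO. Ncr1, the activating receptor NKp46, was at 6.64, 9.83 and 7.32 CPM in FO control, 9.88, 12.9 and 8.91 in FO CKO, 4.36, 7.40 and 4.12 in MZ control and 5.69, 8.27 and 5.05 in MZ CKO. Klrd1, the receptor subunit CD94, was at 6.10, 8.06 and 7.78 CPM in FO control, 6.93, 7.53 and 5.43 in FO CKO, 4.09, 6.09 and 4.06 in MZ control and 4.15, 4.61 and 3.45 in MZ CKO. For Nkg7 and Klrd1 the control groups did not overlap, and for Ncr1 the FO and MZ ranges overlapped in control mice.

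Klrd1 passed the test in both genotypes by edgeR's quasi-likelihood test with Benjamini-Hochberg adjustment, with log2 fold changes of -0.62 ± 0.19 (adjusted p = 0.03048) in control and -0.70 ± 0.19 (0.03222) in CKO mice, and in 2 of 6 fits without 1 library in each. In CKO mice, Gzma fell by 0.86 (SE 0.09, adjusted p = 0.0001924), Ncr1 fell by 0.73 (SE 0.22, 0.04843) and Prf1 rose by 0.49 (SE 0.11, 0.0125). Gzma passed in all 6 fits without 1 library, Prf1 in 4 and Ncr1 in 1. In control mice the corresponding values were -0.61 ± 0.37 for Gzma (adjusted p = 0.3127), -0.58 ± 0.25 for Ncr1 (0.1187), 0.66 ± 0.21 for Prf1 (0.0684) and -0.92 ± 0.28 for Nkg7 (0.06163). With the animal as a block all 6 genes passed in both genotypes, 5 lower and Prf1 higher. Of these 6 genes Prf1 alone ran against the mean of its list, at a Pearson r of -0.43 over 12 libraries, where the others had 0.622 to 0.897. Prf1 in MZ cells therefore did not follow the other killer cell genes.

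Klrb1c, the NK1.1 antigen, varied with both the animal and the subset. Its level was lowest in the FO and MZ libraries of animal 1512, at 5.67 and 2.81 CPM, and highest in those of animal 1514, at 16.1 and 10.5 CPM, both CKO mice. Animal within genotype took 65.7% of its sum of squares and subset 32.5%, with 36.4 and 9.09% of the degrees of freedom. Over all genes the 90th percentile of the animal share was 69.1%. Klrb1c was lower in the MZ library of each of the 6 animals, with ratios of 0.494 to 0.678. It shares 17.0% of its 50-base words with neighbouring genes of its family, and its level is uncertain to that extent. Of 8 further NK genes, 2 of 7 tested fell between MZ control and FO control: Tbx21, a transcription factor of NK and T cells (-0.86, adjusted p = 0.0007114), and Gzmb, another granzyme (-0.85, 0.004533). In CKO mice 1 of 8 fell, the Ly49 receptor Klra4 (-0.84, adjusted p = 0.01834). Of all genes 13.0% were called lower in MZ in control and 7.78% in CKO mice.

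Macrophage and monocyte genes varied between animals, with Lyz2 as the exception. Lyz2, lysozyme of monocytes, macrophages and neutrophils, was at 128, 207 and 264 CPM in FO control, 176, 278 and 199 in FO CKO, 74.0, 135 and 111 in MZ control and 117, 146 and 112 in MZ CKO. Csf1r, the receptor of macrophage colony-stimulating factor, was at 34.7, 78.0 and 64.5 CPM in FO control, 47.2, 96.4 and 63.1 in FO CKO, 30.8, 65.3 and 41.7 in MZ control and 32.3, 71.8 and 45.5 in MZ CKO. Adgre1, the F4/80 antigen of tissue macrophages, was at 11.8, 29.3 and 19.8 CPM in FO control, 16.4, 28.03 and 20.9 in FO CKO, 12.4, 25.8 and 13.3 in MZ control and 14.1, 20.2 and 13.9 in MZ CKO. Animals 1507 and 1514 were the highest for Csf1r in both subsets, and animals 1505 and 1512 the lowest, 1 of each genotype in either case.

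The 3 genes of complement C1q, a product of macrophages, kept this order. C1qa was at 4.38, 20.8 and 13.0 CPM in FO control, 5.34, 20.3 and 17.8 in FO CKO, 10.1, 20.9 and 10.9 in MZ control and 7.72, 18.1 and 14.4 in MZ CKO. C1qb was at 4.06, 17.7 and 8.41 CPM in FO control, 4.83, 16.0 and 10.7 in FO CKO, 7.14, 15.1 and 7.47 in MZ control and 5.96, 14.9 and 8.98 in MZ CKO. C1qc ranged from 5.77 CPM in the FO control library of animal 1505 to 23.1 CPM in the FO CKO library of animal 1514. Animal within genotype took 85.2, 91.4 and 89.98% of the sum of squares of C1qa, C1qb and C1qc, and subset 0.154 to 1.29%. All 3 were higher in the MZ than in the FO library of animals 1505 and 1512, with C1qa ratios of 2.30 and 1.45, and those were the animals with the lowest FO levels. The 3 genes lie side by side on the minus strand (C1qb at chr4:136880129-136886187, C1qc at chr4:136889804-136893065, C1qa at chr4:136895917-136898803, Gencode on GRCm38), and they share no 50-base words with other genes.

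**Figure D4:**
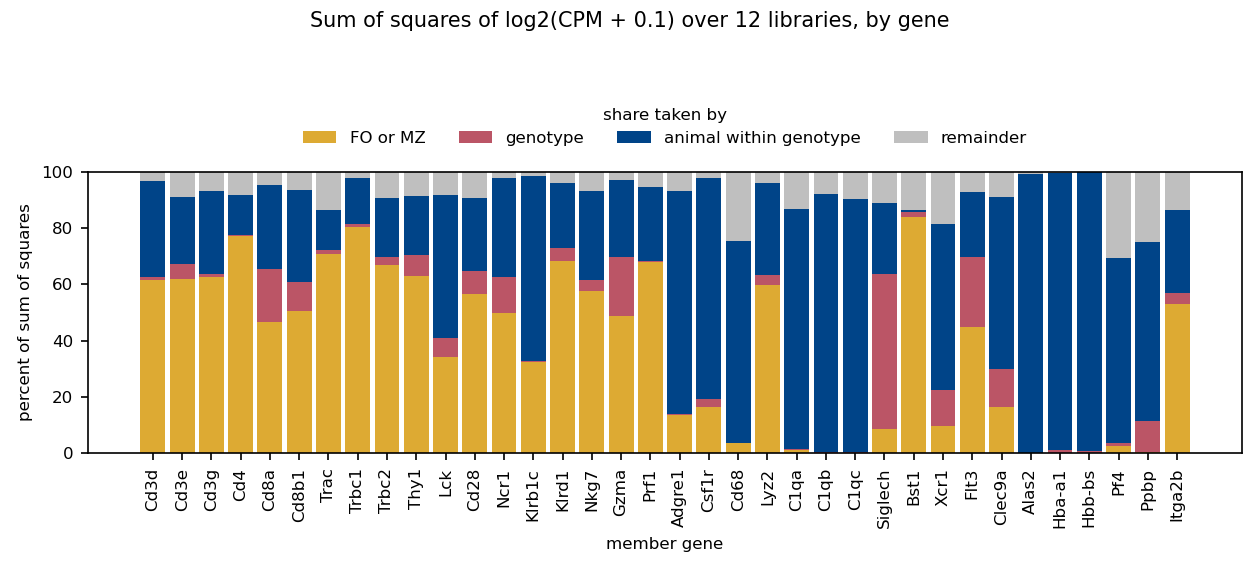
Percent of the sum of squares of log2(CPM + 0.1) over the 12 libraries (y axis) taken by subset (FO or MZ), genotype, animal within genotype and the remainder, as stacked bars for the 36 genes (x axis). Subset takes 34.2 to 80.3% for T cell genes, and animal within genotype takes 98.4 to 99.1% for the erythroid genes and 85.2 to 91.4% for the C1q genes.

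Between MZ and FO, Lyz2 was the only macrophage and monocyte gene of the 7 to pass, and it did so in CKO mice alone (log2 fold change -0.80 ± 0.20, adjusted p = 0.04279 by edgeR's quasi-likelihood test, 2 of 6 fits without 1 library). In control mice it was -0.90 ± 0.38 (adjusted p = 0.1753). The difference between the genotypes in this change did not pass the test, with no gene of the set at an unadjusted p under 0.05 in the fit without a block. With the animal as a block Lyz2 passed in both (adjusted p = 0.003336 in control and 1.506e-09 in CKO mice), as did Csf1r (-0.36 ± 0.07 and -0.47 ± 0.07, 1.215e-05 and 2.76e-06) and Adgre1 (-0.24 ± 0.09 and -0.42 ± 0.09, 0.02579 and 0.0008658). Cd68, a lysosomal glycoprotein of macrophages, had the narrowest range of the 36 genes, 13.5 to 19.5 CPM. Lyz2 shares 15.4% of its 50-base words with Lyz1, and 15.1% of Csf1r's exon bases overlap a gene on the other strand, Hmgxb3, so the levels of both are uncertain to that extent. Among 15 further macrophage genes, 1 of 14 tested rose between MZ control and FO control, Marco (log2 fold change 1.43, adjusted p = 0.002373), a scavenger receptor of marginal zone macrophages. In CKO mice 1 of 14 fell, the monocyte chemokine receptor Ccr2 (-0.75, adjusted p = 0.002116). Of all genes 14.9% were called higher in MZ control and 7.78% lower in MZ CKO, so neither count stands above that share.

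Dendritic cell genes were low, and Bst1 was called in the opposite direction to Flt3 between MZ and FO. Bst1, the surface enzyme CD157, which early B-lineage and myeloid cells also carry, was at 1.39, 2.37 and 1.34 CPM in FO control, 2.17, 3.20 and 2.49 in FO CKO, 9.82, 5.05 and 9.59 in MZ control and 9.73, 6.70 and 6.08 in MZ CKO. No MZ library reached down to the FO libraries. It rose in MZ control (log2 fold change 2.26 ± 0.33, adjusted p = 0.001302) and in MZ CKO (1.53 ± 0.24, adjusted p = 0.002093) by edgeR's quasi-likelihood test with Benjamini-Hochberg adjustment, and with the animal as a block the first had an adjusted p of 0.09211. Its level correlated with the mean of the other 4 genes at a Pearson r of -0.47 over 12 libraries, against 0.241 to 0.480 for those 4. Bst1 lies at chr5:43818885-43843986 on the plus strand (Gencode on GRCm38).

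Flt3, a receptor tyrosine kinase of dendritic cells and their progenitors, was at 12.5, 15.6 and 16.1 CPM in FO control, 12.2, 13.0 and 10.5 in FO CKO, 10.6, 12.6 and 9.76 in MZ control and 8.79, 10.4 and 6.71 in MZ CKO. It fell in MZ control by 0.42 on the log2 scale (SE 0.13, adjusted p = 0.03673 by the same edgeR test, 2 of 6 fits without 1 library), although the FO and MZ ranges overlapped slightly. In CKO mice the change was -0.45 ± 0.18 (adjusted p = 0.1173, and 0.001825 with the animal as a block). Xcr1, the chemokine receptor of cross-presenting dendritic cells, was at 5.95, 6.12 and 4.80 CPM in FO control, 4.98, 6.65 and 5.32 in FO CKO, 6.72, 5.71 and 4.79 in MZ control and 4.37, 5.37 and 4.03 in MZ CKO, and the 4 groups overlapped. Clec9a, a receptor for dead cells on the same dendritic cells, was at 0.521 to 3.44 CPM, and with the animal as a block it was lower in MZ control (-0.56 ± 0.20, adjusted p = 0.01666). Of 9 further dendritic cell genes, 2 of 8 tested fell in each genotype between MZ and FO: Ccr9 (-0.59, adjusted p = 0.02122) and Cd209a (-0.93, 0.002965) in control mice, and Cd209a (-1.10, 0.02846) and Clec10a (-1.04, 0.02677) in CKO mice. The share of all genes called lower was 13.0% in control and 7.78% in CKO mice.

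Of the platelet genes Pf4 and Ppbp were near the lower end of detection and Itga2b was higher. Pf4, platelet factor 4, was at 0.0447 to 0.331 CPM and was not tested. Ppbp, pro-platelet basic protein, was at 0.423, 0.359 and 0.439 CPM in FO control, 0.201, 0.327 and 0.341 in FO CKO, 0.394, 0.519 and 0.310 in MZ control and 0.0993, 0.433 and 0.635 in MZ CKO. Itga2b, the platelet integrin CD41, was at 3.19, 3.71 and 3.34 CPM in FO control, 3.69, 3.90 and 4.30 in FO CKO, 2.89, 3.07 and 2.51 in MZ control and 2.14, 3.08 and 3.34 in MZ CKO. Itga2b was lower in the MZ library of each of the 6 animals, with ratios of 0.579 to 0.906, and Ppbp and Pf4 were higher in some animals and lower in others. Neither tested gene passed between MZ and FO (Itga2b adjusted p = 0.2899 in control and 0.1618 in CKO mice, and 0.02485 in CKO mice with the animal as a block). Among 8 further platelet genes, 1 of 5 tested fell, Itgb3, the partner chain of Itga2b (-1.06, adjusted p = 3.211e-05 in control, and -0.93, 0.009446 in CKO mice). The share of all genes called lower in MZ was 13.0% in control and 7.78% in CKO mice. Itgb3 stood at 2.66 to 7.64 RPKM over the 12 libraries, against 0.392 to 0.788 RPKM for Itga2b. Whether the level of Itgb3 came from platelets was not tested.

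Over the whole set, 22 of the 36 genes were lower in the MZ than in the FO library in each of the 6 animals, 2 were higher in each, and 12 were mixed. The 22 were the 12 T cell genes, 5 NK and cytotoxic genes, Lyz2, Csf1r, Flt3, Clec9a and Itga2b, and the 2 were Bst1 and Prf1. How many of all genes kept their direction in each of the 6 animals was not computed. These counts therefore do not set the markers apart from other genes. Many genes differed between the subsets: with the animal as a block, 43.8% of all genes passed in control and 35.8% in CKO mice. The comparisons of MZ with FO in control and in CKO mice share no library.

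**Figure D5:**
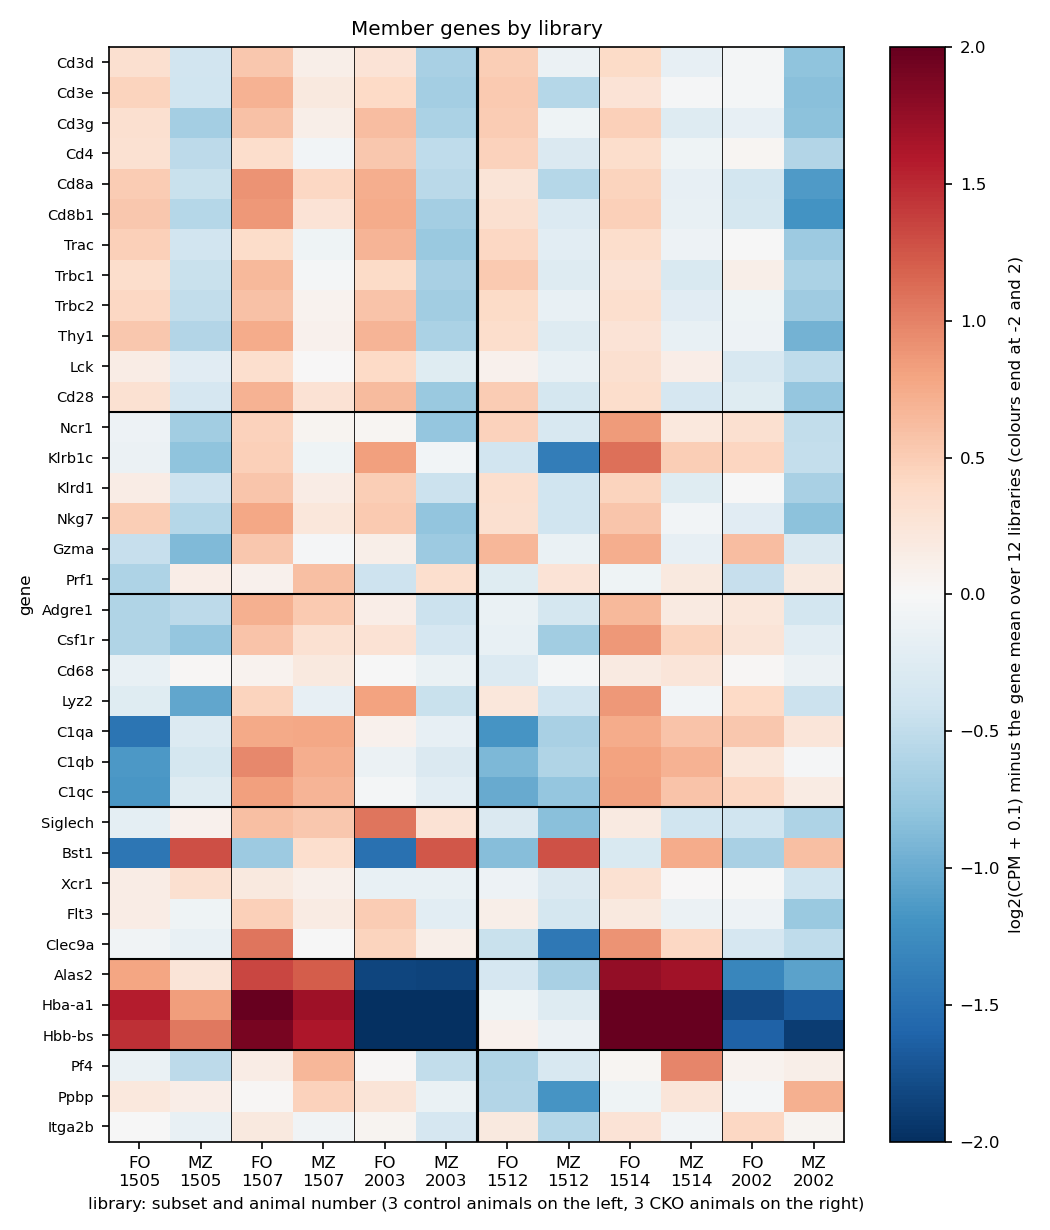
Level of each gene (rows, in list order) in each library (columns, FO and MZ of each animal side by side, control on the left) as log2(CPM + 0.1) minus the gene's mean over 12 libraries, red above and blue below it, with colours ending at -2 and 2. T cell rows alternate between FO and MZ columns, erythroid rows have close shades in both columns of an animal, and Bst1 and Prf1 are higher in the MZ columns.

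No gene of the set passed the edgeR test between CKO and control. Between FO CKO and FO control 0 of 35 genes passed by edgeR's quasi-likelihood test with Benjamini-Hochberg adjustment, where 0.09% of all genes did (16 of 17777). DESeq2 and limma-voom also called 0, as did edgeR with the replicate block (0.141% of all genes). An unadjusted p under 0.05 was found for 4 genes, Thy1, Trbc2, Bst1 and Flt3, and for 4.03% of all genes. Between MZ CKO and MZ control 0 of 35 passed, where 0.0793% of all genes did (14 of 17658), 1 had an unadjusted p under 0.05 (2.90% of all genes), and DESeq2 called 1 and limma-voom 0. The difference between both genotype effects passed for 0 of 35 genes and 0% of all genes, none of the 35 had an unadjusted p under 0.05, and DESeq2 called 0. With the animal as a block, edgeR's quasi-likelihood test gave unadjusted p of 0.002414 for Hba-a1, 0.008424 for Lck, 0.02566 for Thy1 and 0.03687 for Gzma. Their adjusted p were 0.8183 to 0.8955, and the share of all genes under 0.05 in that fit was not computed. The 2 genotype comparisons use FO and MZ libraries of the same animals, and each shares its control libraries with the comparison of MZ and FO in control mice. On simulated counts with a log2 change of 1, the FO fit recovered 71% of 100 changed genes and the MZ fit 79%, so changes of this size or smaller could be missed. The changed genes all had a mean of at least 100 counts, so these rates do not cover low genes such as Ppbp. The fits also made 21 false calls in FO and 19 in MZ.

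All 12 T cell genes had negative log2 fold changes between FO CKO and FO control, -0.57 to -0.09 with a median of -0.25, against 0.01 over all genes. Thy1 was at 41.2, 47.3 and 45.2 CPM in FO control libraries and at 36.1, 34.4 and 26.3 CPM in those of FO CKO mice (log2 fold change -0.46 ± 0.12, unadjusted p = 0.004239, adjusted p = 0.8705 by edgeR). Its groups did not overlap, nor did those of Trbc2, Cd8a, Cd8b1, Gzma and Ppbp, 6 genes of 36, where 9.32% of all genes did not. Of these Gzma was higher in FO CKO and the others were lower, and Ppbp had only 9 to 18 reads per FO library. Without the filter on low counts 3 genes of the set passed as lower, among them Thy1 (adjusted p = 0.0001072) and Trbc2 (0.03513), in a fit that called 140 genes in all. A further 16 T cell genes had 8 with an unadjusted p under 0.05 (4.03% of all genes) and 0 past the test, with the smallest adjusted p for Lat (0.2015) and Cd5 (0.9995). In MZ libraries the 12 T cell genes had log2 fold changes of -0.46 to 0.05 with a median of -0.05, and 0 groups without overlap.

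Siglech, a receptor of plasmacytoid dendritic cells, came nearest to the threshold. In MZ libraries it was at 6.77, 9.36 and 7.87 CPM in control and 3.53, 4.81 and 4.14 CPM in CKO mice. In FO libraries it was at 5.57, 9.78 and 13.5 CPM in control and 5.21, 7.28 and 4.82 CPM in CKO mice. The MZ groups did not overlap, which held for 7.63% of all genes and for no other gene of the set, and the FO groups overlapped. Its log2 fold change was -0.94 ± 0.19 in MZ (unadjusted p = 0.000399, adjusted p = 0.2818 by edgeR) and -0.73 ± 0.34 in FO (adjusted p = 0.9995). Between MZ CKO and FO CKO it was at -0.46 ± 0.21 (adjusted p = 0.1664, and 0.01531 with the animal as a block). DESeq2 gave it, between genotypes, an adjusted p of 0.00391 in MZ, and edgeR without the filter on low counts 0.001406. Over the fits that left out 1 library the log2 fold change stayed between -1.06 and -0.81 with adjusted p from 0.2439 to 0.943. Genotype took 54.7% of its sum of squares over the 12 libraries, the highest share of the 36 genes. The gene lies at chr7:55768178-55778925 on the plus strand (Gencode on GRCm38).

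The 5 dendritic cell genes all had negative log2 fold changes between MZ CKO and MZ control, -0.94 to -0.12 with a median of -0.34, as did the 8 tested of 9 further ones (median -0.31), against 0.00 over all genes. None of these 13 passed the edgeR test, 1 of each list had an unadjusted p under 0.05 (2.90% of all genes), and in FO 3 of the 5 and 7 of the 8 were negative. Bst1 is counted among the 5, although over the 12 libraries it ran against the mean of the others (Pearson r = -0.47). The macrophage and monocyte genes had log2 fold changes of 0.02 to 0.22 between FO CKO and FO control and -0.10 to 0.22 between MZ CKO and MZ control. Genotype took at most 3.71% of the sum of squares of any of the 7. Gzma had a log2 fold change of 0.56 ± 0.25 in FO (unadjusted p = 0.07584, adjusted p = 0.9995 by edgeR) and 0.30 ± 0.22 in MZ (adjusted p = 1). The platelet genes Ppbp and Itga2b stood at -0.49 ± 0.35 and 0.22 ± 0.16 in FO and at -0.09 ± 0.54 and 0.01 ± 0.23 in MZ.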

How the data were processed

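The deposited table holds whole-number read counts without normalization for each Ensembl gene in 12 libraries. Per the submitters' processing notes the authors used TopHat, HTSeq and DESeq2 on GRCm38 (mm10), and the sources used here do not name the annotation release. Libraries were made with a TruSeq kit from total RNA, per the labels' protocols. Entries that name no gene held 43.2 to 50.4% of all counts and were left out. Symbols and coordinates came from Gencode on GRCm38, and promoters from RefSeq.

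The tests ran in edgeR 4.0.16 under R 4.3.3: filterByExpr, TMM, and the robust quasi-likelihood F test, two-sided, over all genes, with a Benjamini-Hochberg adjusted p under 0.05. Each comparison used its own 6 libraries, and the difference of genotype effects all 12. The SE is the absolute log2 fold change over the square root of F, an approximation. DESeq2 1.42.0 and limma 3.58.1 (voom), other scalings, filters and left-out libraries were alternatives. Likeness to a list used the mean of its other genes. On simulated data with a log2 change of 2 the fits recovered 92 to 98% of 100 changed genes, all with a mean of at least 100 counts.

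The genes and lists were chosen with earlier results of these data known. Full statistics are given for each gene that passed in any of 5 comparisons and for the 3 with the highest mean CPM in each list, and further lists by counts with up to 4 genes that passed or up to 2 with the smallest p. C1qa and C1qb were added after their values were seen. A few genes named by these rules are not reported here. The labels set libraries of a group apart by animal number, and p-values measure the spread between these libraries. Deviations from group means correlated within animal numbers between FO and MZ at 0.426 to 0.651, so the animal was used as a block there. Replicate numbers of control and CKO correlated at 0.104, 0.323 and 0.361 in FO, and the block changed no call of the 35 genes there.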

Additional observations from a re-analysis of the deposited data

How the results depend on the processing

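Counts of genes of the set past the threshold moved with the test. Between MZ control and FO control, 11 in the fit reported became 17 without robust dispersions, with limma-voom or without the filter, 19 with DESeq2, 21 with the replicate block, 26 with that block without robust dispersions (chosen after seeing the data), 4 with animals numbered 15xx alone, and 5 to 17 with 1 library left out. Between MZ CKO and FO CKO, 9 became 17 with DESeq2, 26 with the replicate block with or without robust dispersions, 7 with limma-voom or without robust dispersions, 12 with animals numbered 15xx alone, 5 in 1 fit over 12 libraries, and 3 to 9 with 1 library left out. In the genotype comparisons 0 became 3 in FO without the filter, and 1 in MZ, Siglech, with DESeq2, without the filter or with the replicate block (adjusted p = 0.01011, edgeR). MZ replicate numbers of control and CKO correlated at -0.07, 0.362 and 0.365, so they were not taken as pairs. The blocks changed no call of the set other than those given with the results. The animal number series as a block (added after seeing the data) gave 0 in both.

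Changes of sign between MZ and FO occurred in genes that had not passed. Over the fits without 1 library, log2 fold changes in control mice ran from -0.66 to 0.12 for Adgre1, from -1.38 to 0.16 for Hba-a1 and from -1.005 to 0.30 for Hbb-bs. The values above 0 came without FO control replicate 2, and also without MZ control replicate 3 for Hba-a1 (0.06) and Hbb-bs (0.23). In CKO mice Hbb-bs ran from -1.81 to 1.33, with values above 0 without FO CKO replicate 2 (1.33), MZ CKO replicate 1 (0.03) or MZ CKO replicate 3 (0.23).

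Over all genes, 16 calls in FO genotype became 40 with DESeq2, 140 without the filter, 25 with the block, 26 with animals 15xx and 11 to 31 with 1 library left out. In MZ genotype 14 became 38, 95, 57, 34 and 5 to 34, and 7 with limma-voom or without robust dispersions. MZ against FO gave 4977 in control (7805 with the block, 7626 without robust dispersions, 2888 with animals 15xx) and 3243 in CKO (6333, 6177, 1770, and 1898 without FO CKO replicate 1). The difference of genotype effects gave 0, and 4 with the block. The cause of these shifts was not tested, beyond fewer libraries in the fits that leave some out. Mean in place of median RPKM raised the macrophage and monocyte list in FO control from 5.18 to 8.85% of the B cell level and the T cell list in MZ control from 2.41 to 3.76%. Pf4 had 2 to 13 counts per library and did not pass the filter.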

Other observations

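Neutrophil genes were outside the set and present in all 12 libraries. The summed level of 11 of them was 89.98, 223 and 141 CPM in FO control, 136, 450 and 211 in FO CKO, 56.7, 160 and 70.3 in MZ control and 79.5, 278 and 118 in MZ CKO. The MZ library was the lower one in each of the 6 animals, with ratios of 0.499 to 0.716, and animal 1514 was the highest in both subsets. By edgeR's quasi-likelihood test 0 of 11 passed between CKO and control in FO or in MZ, and 1 and 0 had an unadjusted p under 0.05. All 11 log2 fold changes were positive in both subsets, with medians of 0.92 in FO and 0.997 in MZ. With the replicate block 2 passed as higher in FO (0.141% of all genes passed), S100a8 (adjusted p = 0.04924) and S100a9 (0.004173), both subunits of calprotectin. In MZ 6 passed as higher, and the replicate numbers were not taken as pairs there. This block matches a control with a CKO mouse by replicate number, a pairing that the labels do not give. Replicate 1 correlated at only 0.104 in FO and -0.07 in MZ, so the calls in both subsets rest on an assumed pairing.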
